A study of Mus musculus with 27 samples.

Results

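The genes described here are 10 genes that mark the resident macrophages of the liver, the Kupffer cells: Cd163, Marco, Timd4, Clec4f, Vsig4, Folr2, Cd5l, C1qa, Csf1r and Adgre1. They were taken by symbol, with no threshold on their values, out of 18820 genes that a transcript cluster with a single symbol stood for. Each of the 10 genes had 1 such cluster, and all 10 were among the 13993 genes that passed the filter on dim and flat signals. RNA was taken from whole livers of 27 male C57BL/6J mice aged 28 months, with 1 array per mouse. From 9 weeks of age, 8 mice ate the AIN-93W control diet without limit (C), 5 mice received 30% calorie restriction as a daily portion (CR) and 7 mice ate a medium-fat diet with 25% of energy as fat without limit (MF). The other 7 mice were restricted in the same way until 24 months of age and then ate the MF diet without limit for 4 months (CR-MF). Every mouse was fasted for 4 hours and, after a gavage of carboxymethyl cellulose, for another 6 hours, and the CR mice had been given part of their portion just before, so feeding regime and diet group cannot be told apart.

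Kupffer cells sit in the liver sinusoids, where they take up bacteria, complement-coated particles, dying cells and old red blood cells from the portal blood. They are seeded before birth and renew themselves in place, kept by signals such as CSF1 and TGF-beta family ligands from the neighbouring stellate and endothelial cells. When they are lost, monocytes enter the niche and take on a Kupffer cell profile, and they are known to gain Timd4 later than Clec4f. The 10 genes cover uptake receptors (Cd163, Marco, Timd4, Clec4f), receptors and components of complement (Vsig4, C1qa), a growth factor receptor (Csf1r), a secreted scavenger protein (Cd5l), a folate receptor (Folr2) and the F4/80 surface antigen (Adgre1).

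Windows around the annotated gene starts are shown for 4 of the genes, because Cd163 and Marco followed a different course over the diets from Vsig4 and Clec4f, whose levels went together from mouse to mouse. RefSeq sequence on GRCm38.p6 covers 250 bases before to 50 after the start. It was used for 7 of the 10 genes (Cd163, Marco, Timd4, Clec4f, Vsig4, Folr2 and Cd5l) and not for the others. Each window is written 5′ to 3′ on the strand of the gene. Capitals mark GAGGAA, the core bound by the macrophage factor PU.1, and TGCTGA, the core bound by MAF factors, on either strand. The windows are those of Cd163 (chr6:124304401-124304700, forward strand), Marco (chr1:120504975-120505274, reverse strand), Vsig4 (chrX:96293389-96293688, reverse strand) and Clec4f (chr6:83656067-83656366, reverse strand).
Cd163: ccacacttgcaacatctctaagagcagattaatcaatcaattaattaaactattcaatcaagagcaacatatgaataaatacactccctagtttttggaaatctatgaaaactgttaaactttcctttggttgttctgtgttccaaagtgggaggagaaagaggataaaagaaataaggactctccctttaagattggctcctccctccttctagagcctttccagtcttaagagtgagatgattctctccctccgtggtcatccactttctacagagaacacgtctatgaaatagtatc
Marco: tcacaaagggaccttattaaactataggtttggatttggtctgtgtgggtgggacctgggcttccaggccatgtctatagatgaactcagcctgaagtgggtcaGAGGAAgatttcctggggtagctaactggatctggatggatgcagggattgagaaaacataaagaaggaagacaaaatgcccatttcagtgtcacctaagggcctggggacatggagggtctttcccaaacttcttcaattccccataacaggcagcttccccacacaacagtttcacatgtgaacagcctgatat
Vsig4: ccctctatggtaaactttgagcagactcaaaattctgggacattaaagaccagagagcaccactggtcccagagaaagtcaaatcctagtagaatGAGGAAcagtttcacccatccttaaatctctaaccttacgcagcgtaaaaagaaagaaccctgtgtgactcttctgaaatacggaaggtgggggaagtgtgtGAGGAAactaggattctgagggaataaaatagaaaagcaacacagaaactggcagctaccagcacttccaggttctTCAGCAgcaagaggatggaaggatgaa
Clec4f: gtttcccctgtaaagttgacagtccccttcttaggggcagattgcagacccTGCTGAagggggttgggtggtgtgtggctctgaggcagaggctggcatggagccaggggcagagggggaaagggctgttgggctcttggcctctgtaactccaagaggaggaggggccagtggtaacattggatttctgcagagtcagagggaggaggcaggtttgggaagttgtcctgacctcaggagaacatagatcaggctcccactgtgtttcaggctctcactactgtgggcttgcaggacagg
The Vsig4 window held 2 matches to GAGGAA and 1 to TGCTGA, the Marco window 1 match to GAGGAA, the Clec4f window 1 to TGCTGA, and the Cd163 window none to either. Of 32851 such windows, 28.3% held GAGGAA and 19.5% held TGCTGA on either strand. CACGTG, the E-box read by the TFE family and other factors, was in 7.15% of all windows and in none of the windows of the 7 genes. A match is a run of letters and was not tested for binding.

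The values are log2 intensities made by the authors with Robust Multiarray Average (RMA), a summary over the probes of a cluster, so a difference of 1 is a doubling and levels can be compared within a gene only. The correlation between arrays over all genes was between 0.975 and 0.991. The means of the 4 groups were fitted in 1 linear model over all arrays (limma), with Benjamini-Hochberg adjustment over 13993 genes and calls at an adjusted p of 0.05. Codes in the array names, read here as plate and well, placed 6 C, 3 CR, 5 CR-MF and 5 MF mice on plate G150 and 1 mouse of each group on plates G151 and G152. They placed the 7 CR-MF mice alone in well row H, so that row and diet cannot be told apart for these mice. All 8 C mice were in row F and all 7 MF mice in row G, while 3 CR mice were in F and 2 in G. On plate G150 every CR mouse was in row F and every MF mouse in row G, so row and diet cannot be told apart there either. In RNA from whole liver, fewer Kupffer cells and less RNA of a gene per Kupffer cell cannot be told apart, nor can RNA from other macrophages.

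Cd163 was the only one of the 10 genes with a called difference, and it was lower in MF than in CR livers. Between these groups 5.42% of all genes tested were called. Cd163 lies on chromosome 6 (124304636 to 124330529, GRCm38.p6) and encodes the receptor that takes up haemoglobin bound to haptoglobin. Its log2 level in the 5 CR mice was 5.33, 6.69, 6.88, 7.43 and 7.93. In the 7 MF mice it lay between 4.30 and 6.30, with a median of 4.796. Of the 5 CR mice, 4 lay above every MF mouse, while the CR mouse B4_1 (5.33) lay below the MF mouse C4_15 (6.30), so the ranges overlapped. The mean was 4.90 ± 0.67 (SD, n = 7) in MF and 6.85 ± 0.98 (SD, n = 5) in CR. Cd163 was 3.88-fold lower in MF (log2 difference −1.96, standard error 0.55, limma adjusted p = 0.0367). Within plates the difference was −2.10 on G150, −0.40 on G151 and −2.53 on G152. The call was lost when any of 9 mice (4 CR and 5 MF) was left out, with the highest adjusted p (0.092) without CR mouse B4_7. It was also lost on plate G150 alone (adjusted p = 0.138) and with well row as a block (adjusted p = 0.178).

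The mean of Cd163 in each of the other groups lay between those of MF and CR, while single mice ranged more widely. The 7 CR-MF mice ranged from 5.10 to 7.00 with a median of 6.50, and the 8 C mice from 4.54 to 9.09 with a median of 5.381. The C mouse A4_3, at 9.09, stood 2.87 above the next C mouse. CR-MF mice averaged 6.30 ± 0.69 (SD, n = 7), 1.41 above MF on the log2 scale (standard error 0.50, 2.65-fold, adjusted p = 0.165), a difference that did not pass the test. It was called only without the C mouse A4_3, which enters this comparison through the shared estimate of spread (adjusted p = 0.0419). The order of the means was CR, CR-MF, C and MF, and no neighbours in this order differed at the threshold.

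Marco, on chromosome 1 (120474538 to 120505024), encodes a class A scavenger receptor that binds bacteria. Its log2 level in the 5 CR mice was 5.68, 6.17, 6.67, 6.76 and 6.84, against 4.29 to 5.84 with a median of 4.58 in the 7 MF mice. The CR mouse B4_1 (5.68) lay below the MF mouse C4_5 (5.84), and all other CR mice lay above all MF mice. Marco was 3.03-fold lower in MF than in CR (log2 difference −1.60, standard error 0.49), with an unadjusted p of 0.00315 from limma that missed the threshold after adjustment (adjusted p = 0.0542). Within plates the difference was −1.75, −1.60 and −0.84. CR-MF mice averaged 5.97 ± 0.94 (SD, n = 7) and C mice 5.82 ± 1.24 (SD, n = 8), so the order of the 4 means was the same as for Cd163. CR-MF lay 1.14 above MF on the log2 scale (adjusted p = 0.217), but on plate G152 the CR-MF mouse lay 1.52 below the MF mouse. Cd163 and Marco were dim in MF livers, where their means (4.90 and 4.83) lay near the intensity of 20 (log2 4.32) that the filter used. Of 27 arrays, 26 for Cd163 and 25 for Marco were above this intensity.

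Of the 10 genes, 1 was called between MF and CR, against 5.42% of all genes tested, and 2 (Cd163 and Marco) had an unadjusted p under 0.01, against 10.5%. Neither of the remaining uptake receptors was called between MF and CR. Timd4 was also lower in MF (−0.37, standard error 0.45), and Clec4f was higher (0.29, standard error 0.29). Timd4 (chromosome 11, 46810786 to 46844333) encodes TIM-4, a receptor for phosphatidylserine on dying cells. It ranged from 7.08 to 7.52 in CR, 6.39 to 7.76 in MF, 6.58 to 8.93 in CR-MF and 6.23 to 9.30 in C mice. The CR mice thus lay within the range of each other group, with an SD of 0.17 against 0.58 to 1.15 in the other groups. Timd4 was lowest on average in MF (6.96 ± 0.58, SD, n = 7) and highest in C (7.89 ± 1.15, SD, n = 8), a difference of −0.93 with an unadjusted p of 0.0266 and an adjusted p of 1.0 from limma. Clec4f (chromosome 6, 83644542 to 83656116), a C-type lectin used as a marker of mouse Kupffer cells, averaged 9.83 ± 0.25 (SD, n = 5) in CR and 10.6 ± 0.62 (SD, n = 8) in C, with MF and CR-MF between them. The difference between CR and C was −0.74 (standard error 0.28, limma adjusted p = 0.144).

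**Figure D1:**
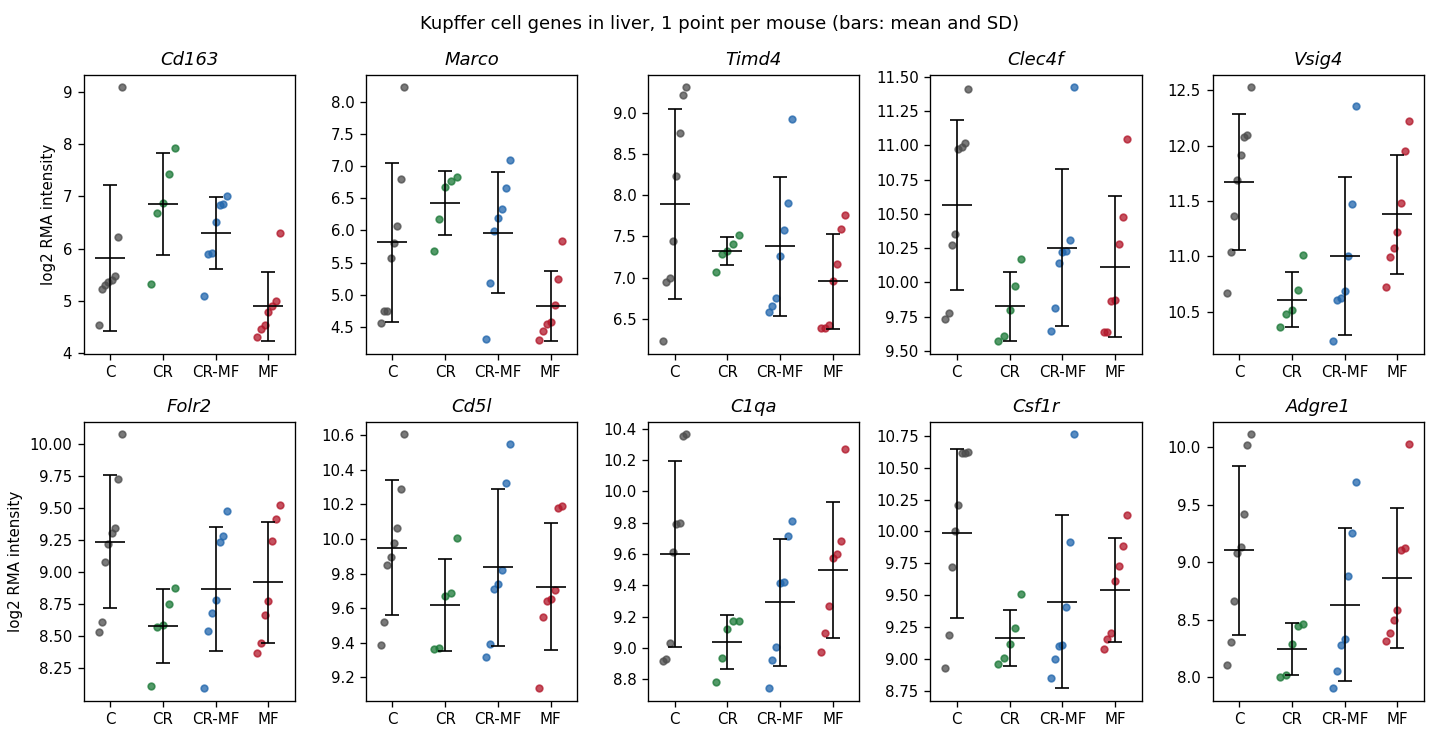
Log2 RMA intensity (vertical axis, a scale of its own for each gene) of the 10 Kupffer cell genes in C (n = 8), CR (n = 5), CR-MF (n = 7) and MF (n = 7) livers, with 1 point per mouse and bars for the mean and SD. Cd163 and Marco have their highest mean in CR and their lowest in MF, while the other 8 genes have their highest mean in C.

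The 8 genes other than Cd163 and Marco all had their highest mean in C, and 7 of them had their lowest in CR, the exception being Timd4. Between CR and C none of the 10 genes was called, against 1.57% of all genes, and 2 of them (Vsig4 and Csf1r) had an unadjusted p under 0.01, against 8.03%. At an unadjusted p under 0.05 there were 6 of 10, beside 2769 of the 13993 genes tested. The signs were 8 lower and 2 higher in CR, with a median log2 difference of −0.61, beside 0.016 over all genes tested.

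Vsig4 (chromosome X, 96247201 to 96293438), the receptor for C3b and iC3b with which Kupffer cells hold complement-coated bacteria, had the lowest unadjusted p of the 10 genes between CR and C. Its log2 level in the 5 CR mice was 10.36, 10.48, 10.52, 10.69 and 11.01. In the 8 C mice it ran from 10.67 to 12.53 with a median of 11.80. The ranges overlapped only through the C mouse A4_1 (10.67), which lay below 2 of the CR mice. Vsig4 was 2.09-fold lower in CR than in C (log2 difference −1.06, standard error 0.31), with an unadjusted p of 0.00188 and an adjusted p of 0.067 from limma. Within plates the difference was −1.22 on G150, −1.001 on G151 and 0.02 on G152, the plate of mouse A4_1. It was called in a fit of the 2 groups alone (adjusted p = 0.0389) and without C mouse A4_1 or CR-MF mouse BC4_11. MF livers averaged 11.4 ± 0.54 (SD, n = 7), 0.77 above CR (adjusted p = 0.139).

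C1qa (chromosome 4, 136895916 to 136898844) encodes a chain of C1q, the starter of the classical complement pathway. It lay between 8.78 and 9.17 in CR, 8.92 and 10.4 in C, 8.74 and 9.81 in CR-MF and 8.97 and 10.3 in MF, so that no CR mouse reached the mean of C (9.60 ± 0.59, SD, n = 8). The difference between CR and C was −0.56 (standard error 0.24, limma adjusted p = 0.19). C1qb, the gene of another chain of the same protein, rose by 0.80 from CR to MF (standard error 0.24, limma adjusted p = 0.045), where C1qa differed by 0.46 (standard error 0.25, adjusted p = 0.263).

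Csf1r (chromosome 18, 61105572 to 61131139), the receptor for CSF1 and IL-34 on which macrophages depend, measured 8.96, 9.00, 9.11, 9.25 and 9.51 in the 5 CR mice. In C it ran from 8.93 to 10.62 with a median of 10.11. Here too the C mouse A4_1 was low (8.93), below every CR mouse, and the ranges overlapped. The difference was −0.82 (standard error 0.29, 1.77-fold, limma adjusted p = 0.122). Adgre1 (chromosome 17, 57358581 to 57483529), which encodes the F4/80 antigen, averaged 8.24 ± 0.22 (SD, n = 5) in CR and 9.10 ± 0.74 (SD, n = 8) in C, a log2 difference of −0.86 (standard error 0.33, adjusted p = 0.147). Folr2 (chromosome 7, 101839988 to 101857190), a folate receptor of resident macrophages, differed by −0.66 (standard error 0.25, adjusted p = 0.139). Cd5l (chromosome 3, 87357881 to 87371074), a secreted protein that protects macrophages from apoptosis, differed by −0.33 (standard error 0.21, adjusted p = 0.387). The SD was smallest in CR for 9 of the 10 genes, Cd163 being the exception. This is a description over 5 mice, was not tested and was not set beside the SD of all genes. For the liver transcriptome as a whole, the paper also describes less variation between CR mice than between MF or CR-MF mice. On plate G152, where A4_1 was the only C mouse, 7 of these 8 genes were higher in the CR mouse than in the C mouse, by 0.02 to 0.52, and Folr2 differed by −0.04.

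Most of the 8 genes were lower in CR than in MF as well, without a call. From CR to MF, 7 of the 10 genes were higher and 3 lower, with a median of 0.32 beside −0.0068 over all genes tested. Vsig4 (0.77), Adgre1 (0.62) and C1qa (0.46) had the widest positive differences, with adjusted p of 0.139, 0.271 and 0.263 from limma, while Timd4 was at −0.37 (adjusted p = 0.659). From CR to CR-MF, 8 genes were higher and 2 (Cd163 and Marco) lower, with differences from −0.55 to 0.43. None was called, against 0.6% of all genes, and none had an unadjusted p under 0.01, against 4.62%. With CR-MF set against MF, the signs were 5 up and 5 down, none was called (background 1.44%), and Cd163 alone had an unadjusted p under 0.01 (background 5.77%). These comparisons share groups, so their values are not independent of each other.

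Against the control diet, the CR-MF livers had 8 genes lower and 2 higher, with a median of −0.34 beside 0.0044 over all genes. None was called (background 0.3%) or had an unadjusted p under 0.01 (background 3.52%), and Vsig4 came closest with a difference of −0.67 (standard error 0.28, adjusted p = 0.358). In MF livers all 10 genes were lower than in C, with log2 differences from −0.99 for Marco to −0.11 for C1qa and a median of −0.38 beside 0.0029. None was called by limma, where the background was 0.0%, and none had an unadjusted p under 0.01 (background 0.843%). At an unadjusted p under 0.05 there were 2 of the 10 (Timd4 and Marco) and 556 of all genes, and the intensity-based moderated statistic called none of the 10 either.

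**Figure D2:**
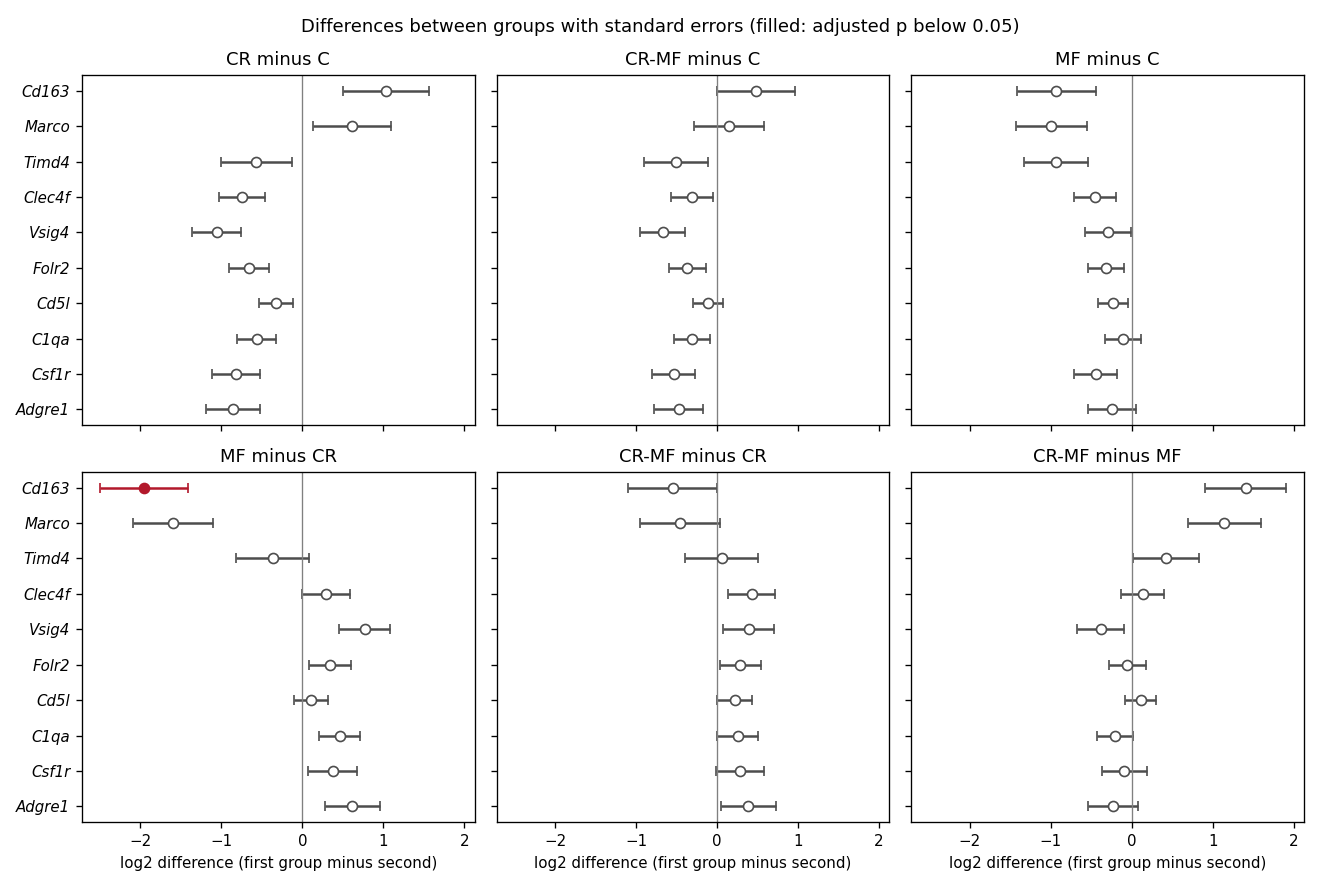
Log2 difference (horizontal axis, first group minus second) with its standard error for each of the 10 genes in the 6 comparisons, fitted over all 27 arrays. The filled point is Cd163 between MF and CR, the 1 difference with an adjusted p below 0.05, and Cd163 and Marco lie opposite to most other genes wherever CR is compared with another group.

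From mouse to mouse within the groups, 8 of the genes went together and Cd163 did not follow them. Each gene was taken as its deviation from the mean of the mouse's own group, and 45 pairs of genes were correlated over 27 mice, with permutation p-values (two-sided, 100000 resamples, smallest possible 1e-05) adjusted over the pairs. The 28 pairs among Timd4, Clec4f, Vsig4, Folr2, Cd5l, C1qa, Csf1r and Adgre1 had Pearson's r between 0.62 and 0.95, with a median of 0.84. Clec4f and Vsig4 went together most closely (r = 0.95, permutation p = 1e-05, adjusted p = 2.37e-05; Spearman's rho = 0.91, permutation p = 1e-05, adjusted p = 2.81e-05). Without the 2 mice farthest from the median of Clec4f (BC4_11 and C4_5), r was 0.92, and with the plate effect removed it was 0.94. All genes of a mouse share its array, RNA and share of macrophages in the piece of liver.

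The r of Cd163 with these 8 genes lay between −0.21 and 0.02, with permutation p-values adjusted over the 45 pairs from 0.406 for Cd5l to 0.994 for Csf1r. With Marco, Cd163 had r = 0.40 (permutation p = 0.096, adjusted p = 0.14) and rho = 0.50 (permutation p = 0.011, adjusted p = 0.0168). Without the 2 mice farthest from the median of Cd163 (A4_3 and C4_15), r was 0.41. Marco had r from 0.05 with Cd5l to 0.52 with C1qa among the 8 genes. With C1qa the permutation p was 0.019 (adjusted p = 0.0299) and rho was 0.45 (permutation p = 0.038, adjusted p = 0.0552), and with Adgre1 r was 0.44 (permutation p = 0.051, adjusted p = 0.0771). Without the 2 mice farthest from the median of Marco (A4_17 and BC4_11), r was 0.31 with Cd5l, 0.35 with Vsig4, 0.53 with Csf1r, 0.59 with C1qa and 0.60 with Adgre1.

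**Figure D3:**
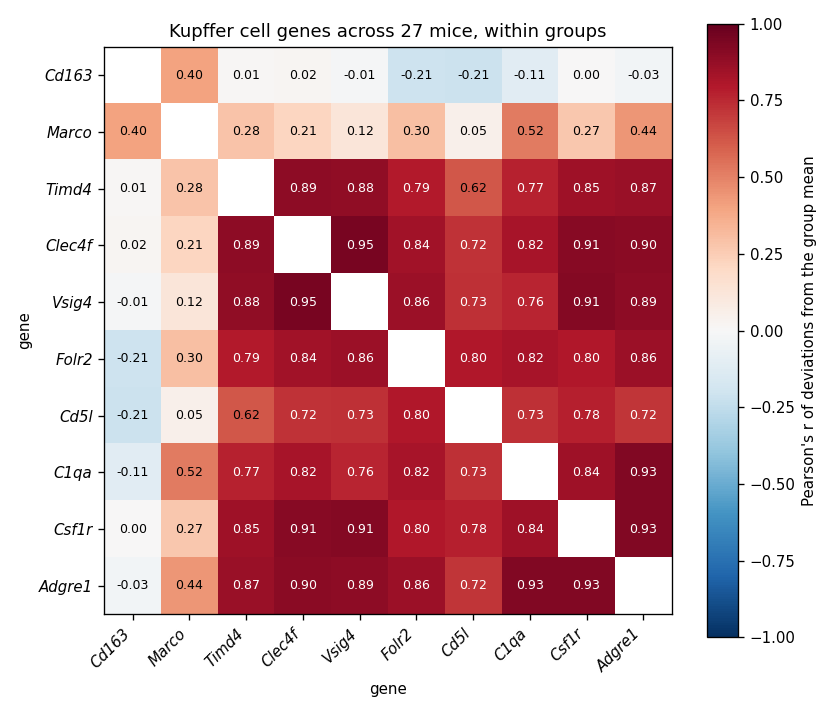
Pearson's r of the deviations from the group mean for each pair of the 10 genes over 27 mice (both axes list the genes, colour runs from −1 to 1). The 8 genes from Timd4 to Adgre1 form a block with r of at least 0.62, and the row of Cd163 lies between −0.21 and 0.40.

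A summed level was taken for each mouse as the mean over genes of the log2 value minus the gene's mean over 27 mice. Cd163 and Marco were set apart for the order of their group means in these same mice. Their summed level therefore restates that order and is no test of it. For Cd163 and Marco together it averaged 0.83 ± 0.72 (SD, n = 5) in CR, 0.33 ± 0.78 (SD, n = 7) in CR-MF, 0.016 ± 1.06 (SD, n = 8) in C and −0.94 ± 0.41 (SD, n = 7) in MF. All 7 MF mice were below 0, from −1.32 to −0.37. For the other 8 genes it averaged 0.33 ± 0.62 (SD, n = 8) in C, −0.042 ± 0.45 (SD, n = 7) in MF, −0.078 ± 0.57 (SD, n = 7) in CR-MF and −0.37 ± 0.20 (SD, n = 5) in CR. All 5 CR mice were below 0, from −0.61 to −0.13. The CR-MF mouse BC4_11 held both ends of its group, with the highest level of the 8 genes (0.95) and the lowest of Cd163 and Marco (−1.10).

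**Figure D4:**
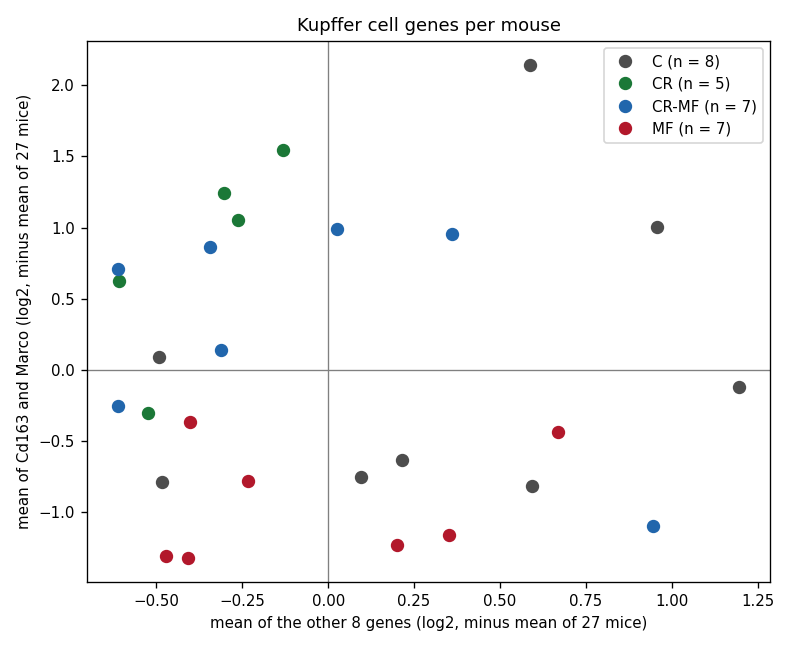
Mean of Cd163 and Marco (vertical axis) against the mean of the other 8 genes (horizontal axis) in each of 27 mice, in log2 units relative to the mean of all mice and coloured by group. All CR mice lie left of 0 and all MF mice below 0, while C and CR-MF mice spread over both axes. Cd163 and Marco were set apart for their group means in these same mice.

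Outside the 10, the genes whose deviations were most like those of Cd163 over the 27 mice were Lrrc66 (r = 0.74), Serp1 (0.70), Pole4 (0.68), Mir322 (0.68) and Acot5 (0.65), and no macrophage gene of the lists used here was among them. Those most like the mean of the 10 genes were Ms4a8a (r = 0.93), Trpv4 (0.92), Tlr13 (0.92), Alox5ap (0.92) and Cfp (0.92). These r are the highest of all genes tested and carry no test. Those with Cd163 include the C mouse A4_3, which stood far above its group, and were not taken without it.

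Genes shared by macrophages in general had lower means in CR than in C. Of 22 such genes (among them C1qb, Cd68, Mertk and Spi1, the gene of PU.1), 21 were measured and all 21 were lower in CR, with a median log2 difference of −0.87, but none was called (all genes 1.57%) and 16 had an unadjusted p under 0.01 (all genes 8.03%). All 21 were higher in MF than in CR, with a median of 0.70, and C1qb was the 1 called (all genes 5.42%). The mean level of this list lay between −0.65 and −0.34 in the CR mice, −0.49 and 0.89 in C, −0.42 and 0.83 in MF and −0.69 and 0.89 in CR-MF mice. On plate G152 it was −0.45 in the CR mouse and −0.49 in the C mouse A4_1. Genes of a list were measured in the same mice, so their signs are not independent of each other. Cd163 and Marco were thus higher in CR than in C by 1.03 and 0.61 (adjusted p = 0.284 and 0.509 from limma), while the pan-macrophage genes were lower. Without the C mouse A4_3 the first of these differences was 1.49 (adjusted p = 0.0576), and without the CR mouse B4_7 it was 0.76 (adjusted p = 0.504).

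Genes of lipid-associated and newly recruited macrophages were also low in CR. All 16 measured genes were lower in CR than in C, with a median of −0.73, and 3 of them fell, against 1.57% of all genes called. Trem2, a lipid-sensing receptor, fell by 1.63 (standard error 0.39, limma adjusted p = 0.0311). Lgals3, the gene of galectin-3, fell by 1.13 (standard error 0.26, adjusted p = 0.0276), and Ccr2, the monocyte chemokine receptor, fell by 1.099 (standard error 0.27, adjusted p = 0.0326). All 16 were higher in MF than in CR, with a median of 0.74, and Gpnmb, Ccr2 and Trem2 rose, by 1.57, 0.98 and 1.41 (adjusted p = 0.037, 0.037 and 0.0389), against 5.42% of all genes called. Between CR-MF and MF, Cd9 was lower in CR-MF (−0.76, adjusted p = 0.0327), against 1.44% of all genes called. Of 14 measured further genes that mark Kupffer cells, such as Fcna, Spic, Id3 and Nr1h3, none was called in any of the 6 comparisons, and 11 were lower in CR than in C with a median of −0.17.

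**Figure D5:**
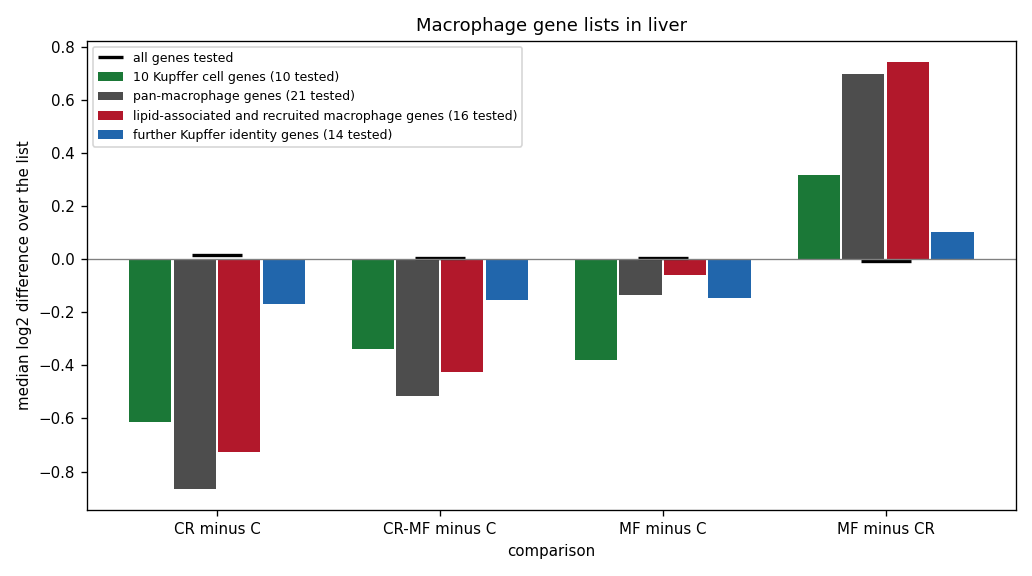
Median log2 difference over each list of macrophage genes (vertical axis, bars from 0) in 4 comparisons, with black marks for the median of all genes tested. In CR minus C the medians are −0.61 for the 10 Kupffer cell genes, −0.87 for pan-macrophage genes, −0.73 for lipid-associated and recruited macrophage genes and −0.17 for further Kupffer cell genes.

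Of 13 measured growth and niche signals of Kupffer cells, 1 rose and 1 fell from CR to MF, where 5.42% of all genes were called, and none was called between CR and C. Csf1, the ligand of Csf1r, was 6.94 ± 0.16 (SD, n = 5) in CR and 7.48 ± 0.33 (SD, n = 7) in MF, a rise of 0.54 (standard error 0.13, limma adjusted p = 0.0172). Bmp10, a ligand made by stellate cells that sustains Kupffer cell identity, fell by 0.55 (standard error 0.13, adjusted p = 0.0191). Of 17 measured genes of scavenger receptors and phagocytic uptake, 2 were called between CR and MF (all genes 5.42%). Gas6, which bridges dying cells to MERTK and AXL, rose by 1.14 (adjusted p = 0.00848) and Cd36, a receptor for lipids, by 0.89 (adjusted p = 0.0276) from CR to MF. Both were lower in CR-MF than in MF, with differences of −0.95 (adjusted p = 0.0216) and −1.05 (adjusted p = 0.012), where 1.44% of all genes were called. Havcr2, the TIM-3 gene and a relative of Timd4, was the 1 uptake gene called between CR and C (all genes 1.57%). It fell by 1.47 from C to CR (adjusted p = 0.029). Of 11 measured complement genes, 1 was called between CR and C (all genes 1.57%) and 1 between CR and MF (all genes 5.42%). C3ar1, the C3a receptor, fell by 1.24 from C to CR (adjusted p = 0.0253) and rose by 1.02 from CR to MF (adjusted p = 0.0347). None of the 11 measured genes of haemoglobin and iron recycling, the process in which CD163 takes part, was called in any comparison, and their median difference between MF and CR was 0.10.

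Markers of other immune cells were also lower in CR than in C by sign, without a call. Between CR and C, all 9 measured T and NK cell genes (median −0.59), 7 of 8 B and plasma cell genes (−0.72), all 10 neutrophil genes (−0.29) and 6 of 9 dendritic cell genes (−0.26) were lower in CR, and none of them was called in any of the 6 comparisons, nor were the 2 measured red cell genes. The mean level of the T and NK cell list lay between −0.53 and −0.32 in CR and between −0.71 and 0.91 in C mice. Of 14 sinusoidal endothelial genes, Flt4 rose from CR to MF (0.50, adjusted p = 0.0064) and was lower in CR-MF than in MF (−0.49, adjusted p = 0.00675), and none was called between CR and C. Of 7 measured hepatocyte genes, Tat and Cps1 fell from CR to MF (by 0.46 and 0.29, adjusted p = 0.015 and 0.0287). Of 11 stellate cell genes, Pdgfrb rose from CR to MF (0.65, adjusted p = 0.0195) and Colec11 was lower in CR-MF than in MF (−0.51, adjusted p = 0.0338). Over all genes, 5.42% were called for MF against CR, and 1.44% when CR-MF was set against MF. Whether the endothelial, hepatocyte and stellate lists held more calls than these shares was not tested. The part of these cells in the levels of the 10 genes was not tested. Of the 23 calls given for genes outside the 10, only 4 (Gas6 and Flt4 between MF and CR, Flt4 and Cd36 between CR-MF and MF) held whichever mouse was left out.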

How the data were processed

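Liver RNA of 27 mice was hybridised by the authors to Affymetrix Mouse Gene 1.1 ST arrays, 1 per mouse. The authors deposited log2 intensities, 1 value per transcript cluster, normalized with Robust Multiarray Average (RMA), whose version is not given in the sources used here. The methods describe probe sets by Entrez ID, while the deposited table has the manufacturer's clusters. Precision is limited by the number of mice, each a biological replicate, and by signal over background. Clusters with 1 gene symbol (21218 of 35556) were used, the brightest per gene. Genes above an intensity of 20 on at least 5 arrays with an interquartile range above 0.1 were tested with limma 3.58.1 in R 4.3.3 (lmFit, eBayes with intensity trend, all arrays), a fit checked on simulated data. Permutation tests used Python 3.11.15 with scipy 1.17.1.

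The 10 genes and the gene lists were chosen with earlier results of these data known. Named are the 10 genes, at most 3 called genes per list and comparison by smallest p, and the 5 genes most like Cd163 and the 5 most like the mean of the 10. Alternatives were quantile normalization, no filter or a filter at an intensity of 100, eBayes without trend, the intensity-based moderated statistic of the study's methods, fits of 2 groups, blocks for plate, well row or animal number, G150 mice alone and leaving out each mouse. The array title of C mouse A4_9 ends in A4_9_2 for a reason that is not stated.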

Additional observations from a re-analysis of the deposited data

Results flagged for a closer look

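In 3 of 40 sets of values (10 genes in 4 groups), 1 mouse stood apart from the rest of its group by Dixon's test, in which chance marks about 1 set in 20. Cd163 was at 9.0876 in the C mouse A4_3, 2.87 above the next C mouse. Cd163 was at 6.296 in the MF mouse C4_15, 1.30 above the next MF mouse. Clec4f was at 11.4216 in the CR-MF mouse BC4_11, 1.11 above the next CR-MF mouse.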

How the results depend on the processing

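Of the 10 genes, 1 was called between MF and CR (Cd163). The number was 2 (Cd163 and Marco) with quantile normalization, with a filter at an intensity of 100, in a fit of the 2 groups alone and with animal number as a replicate block, and it was 0 on plate G150 alone and with well row as a block. The share of all genes called was 5.42% in the main fit. In the settings with 2 calls it was 5.59%, 8.02%, 3.27% and 6.13% in turn, and in those with 0 it was 0.479% and 1.06%. With 1 mouse left out the number of the 10 genes called lay between 0 and 2. The call of Cd163 ended without CR mouse 3, 5, 7 or 13 or without MF mouse 1, 5, 7, 9 or 11, and Marco was called without C mouse 17 or 19, MF mouse 5 or CR-MF mouse 11. Between CR-MF and MF the number lay between 0 and 1 with 1 mouse left out (Cd163 without C mouse 3). Between CR and C the number was 1 (Vsig4) in a fit of the 2 groups alone, where 3.52% of all genes were called beside 1.57% in the main fit. It lay between 0 and 2 with 1 mouse left out (Vsig4 and Csf1r without C mouse 1, Vsig4 without CR-MF mouse 11). No other replicate block result changed a call among the 10 genes.

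Differences that changed sign were none of them called. On plate G150 alone, Timd4 was at −0.1408 between CR-MF and CR and Cd5l at −0.0602 between CR-MF and MF, and with well row as a block Folr2 was at 0.0778 between MF and C. With 1 mouse left out, the range crossed 0 for C1qa between MF and C (−0.2339 to 0.004), for Cd5l (−0.0048 to 0.2003), Clec4f (−0.0562 to 0.2933), Csf1r (−0.3103 to 0.0081) and Folr2 (−0.1534 to 0.0765) between CR-MF and MF, for Marco between CR-MF and C (−0.038 to 0.493) and for Timd4 between CR-MF and CR (−0.1988 to 0.1918). Correlations of Cd163 changed sign without the 2 farthest mice with Clec4f (−0.1193), Timd4 (−0.0738) and Csf1r (−0.1797), and with Vsig4 after removal of the plate effect (0.0113). For the called genes outside the 10, 34 of 222 values under settings other than leaving out a mouse were no longer called, all with the same sign. The causes were not tested.

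Over all genes, the number called between MF and CR was 758, and 457 in a fit of the 2 groups, 67 on plate G150 and 148 with well row as a block. Between CR and C it was 220, and 493, 52 and 33 in these settings and 354 with the replicate block. Between CR-MF and CR it was 84, 9 with 2 groups and 8 on plate G150, and between CR-MF and MF the share of genes called was 1.44%, 0.822% and 0.815%. Between CR-MF and C it was 42, and 69 with the replicate block. With 1 mouse left out these numbers lay between 257 and 1174, 42 and 569, 21 and 137, 91 and 423, and 21 and 111, and between 0 and 1 for MF and C. The animal numbers were not taken to pair mice. Deviations of 27 same-numbered pairs correlated between −0.25 and 0.36, with a median of 0.09 beside −0.02 for other pairs from different groups. Of the same-numbered pairs, 13 were over 0.1, and 3 of 27 mice correlated best with their own number. The choice between clusters of a gene could not be varied, since each of the 10 genes has 1. Well row could not be fitted for comparisons with CR-MF.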
